A study of Mus musculus with 12 samples.

Results

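Sncg, Npr3, Fgf13, Wfdc21, Prr32 and Pcbd1 are 6 genes whose RNA was higher in gonadal white adipose tissue (WAT) of mice given unacylated ghrelin (UAG) than in WAT of mice given saline. They were selected on the arrays themselves: a probe set, a group of short probes for a single transcript, was kept when it named one of these genes alone and both UAG arrays of WAT lay above both saline arrays. All 9 probe sets that name a single one of the 6 genes met this rule, among 34945 probe sets that name 1 gene, 45037 probe sets in all and 18193 genes. The order of UAG and saline in WAT is therefore given below as a description, with no test, and tests are kept for muscle, for liver, for levels in muscle against liver and for other genes.

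The 12 arrays (Affymetrix Mouse Genome 430 2.0) measured RNA of gonadal WAT, of muscle (M. vastus lateralis) and of liver. All mice were 12-week-old Ghsr-/- females, which lack the growth hormone secretagogue receptor (GHSR), the receptor of acylated ghrelin. The groups, with 2 arrays each, were WAT UAG, WAT saline, muscle UAG, muscle saline, liver UAG and liver saline, where UAG is ghrelin without its acyl group, injected intraperitoneally at 20 nmol/kg, and tissues were taken 6 h after UAG or saline. The labels do not tie an array to a mouse, so the p-values below measure only the spread between these samples, and no mice with an intact receptor were on the arrays analysed here.

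The 6 genes belong to unrelated families. Npr3 encodes the natriuretic peptide clearance receptor, which removes natriuretic peptides from the circulation and so limits their lipolytic signal in fat cells. Sncg encodes gamma-synuclein, a small cytosolic protein of sensory neurons and adipocytes. Fgf13 is a fibroblast growth factor homologous factor, which stays inside the cell and binds voltage-gated sodium channels. Wfdc21 encodes a small secreted protein with a whey acidic protein domain. Pcbd1 encodes pterin-4a-carbinolamine dehydratase, which recycles the cofactor tetrahydrobiopterin and also binds the transcription factor HNF1 in the nucleus. Prr32 encodes a proline-rich protein.

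Promoters were read because the 6 genes were higher on the same WAT arrays. RefSeq (GRCm38.p6) gave 8 promoters for 5 of the genes, 4 of them for Fgf13, each from 250 bases before to 50 bases after a start site. The promoters of Sncg and Npr3, the pair with the brightest probe sets in WAT, and of Pcbd1, which has a high level in liver, are shown 5′ to 3′ with motif matches in capitals.
Sncg promoter, chr14:34374620-34374919, minus strand: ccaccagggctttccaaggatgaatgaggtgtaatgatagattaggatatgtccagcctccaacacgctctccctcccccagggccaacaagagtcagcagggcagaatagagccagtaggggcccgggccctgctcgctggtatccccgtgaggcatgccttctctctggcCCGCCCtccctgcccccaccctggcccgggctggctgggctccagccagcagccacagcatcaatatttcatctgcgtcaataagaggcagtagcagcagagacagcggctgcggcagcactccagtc
Npr3 promoter, chr15:11907322-11907621, minus strand: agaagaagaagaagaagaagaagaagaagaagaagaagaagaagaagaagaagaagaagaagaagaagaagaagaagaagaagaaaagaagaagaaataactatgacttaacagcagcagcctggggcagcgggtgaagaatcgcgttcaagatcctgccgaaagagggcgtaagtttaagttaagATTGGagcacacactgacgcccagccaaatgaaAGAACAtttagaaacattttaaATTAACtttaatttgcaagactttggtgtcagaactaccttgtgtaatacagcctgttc
Pcbd1 promoter, chr10:61089081-61089380, plus strand: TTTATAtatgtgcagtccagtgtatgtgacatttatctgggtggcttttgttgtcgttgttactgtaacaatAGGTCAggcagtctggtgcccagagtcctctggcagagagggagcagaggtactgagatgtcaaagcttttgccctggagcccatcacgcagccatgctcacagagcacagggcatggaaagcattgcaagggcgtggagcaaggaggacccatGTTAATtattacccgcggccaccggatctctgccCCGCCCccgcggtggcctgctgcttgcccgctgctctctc
Both strands were searched for 7 motifs. The TATA box was searched as TATAAA and the CCAAT box by the letters of its name. The GC box was searched as GGGCGG and the E-box, a site of basic helix-loop-helix factors, as CACGTG. The core hexamer of nuclear receptors was searched as AGGTCA, that of the glucocorticoid receptor as AGAACA and the core of the HNF1 site as GTTAAT. No match overlapped another in the 3 promoters shown. Positions are those of the first base of a match, counted from the start site as 1, with bases before it negative. Sncg held 1 GC box, at -78. Npr3 held a CCAAT box at -64, a glucocorticoid receptor hexamer at -31 and an HNF1 core at -9. Pcbd1 held a TATA box at -250, the first base of the window, a nuclear receptor hexamer at -178, an HNF1 core at -24 and a GC box at 11. Prr32 held none of the 7 motifs, and 2 of the Fgf13 promoters held 4 GC boxes each. These motifs are common: among 32851 promoters of the same length, 35.7% held a GC box, 37.4% a CCAAT box, 19% the glucocorticoid receptor hexamer, 16.3% the nuclear receptor hexamer, 13.6% a TATA box, 7.15% the E-box and 7.1% the HNF1 core. No motif was shared by all 5 genes. The promoters differed in base composition, with 61.3% G and C in Sncg, 39% in Npr3, 55.3% in Pcbd1 and 42.7% in Prr32, against a median of 52.7% over all promoters.

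In WAT the 6 genes stood about 3-fold higher on the UAG arrays than on the saline arrays. The 2 UAG arrays differed by at most 1.27-fold, in a probe set of Fgf13 whose saline arrays differed by 1.24-fold. Values are intensities, that is, the deposited log2 values returned to the linear scale. For ratios and differences, intensities below 30 were set to 30. Sncg had intensities of 4325 and 4414 on the UAG arrays, against 1481 and 1158 on the saline arrays. The 2 UAG values of Sncg differed by less than the 2 saline values, and the UAG mean was 3.31 times the saline mean, a log2 difference of 1.74 ± 0.18 (limma SE, n = 2 arrays per group).

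Npr3 was measured by 3 probe sets, all of which stood higher on the UAG arrays. The brightest gave 3492 and 3046 on the UAG arrays, against 1317 and 836 on the saline arrays (ratio of means 3.04, log2 difference 1.64 ± 0.25, SE). The second gave 969 and 864 on the UAG arrays, against 373 and 241 on the saline arrays, and the dimmest gave 494 and 504, against 198 and 102. Their ratios of 2.99 and 3.34 lay close to that of the brightest, and in all 3 the saline array labelled replicate 2 was the lowest of the 4 WAT arrays.

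Fgf13 was measured by 2 probe sets. The brighter gave 1262 and 995 on the UAG arrays, against 390 and 314 on the saline arrays (ratio 3.20, log2 difference 1.68 ± 0.19, SE). The dimmer gave 137 and 140 on the UAG arrays, against 57.1 and 22.4 on the saline arrays (ratio 3.18). One of its saline values lay below 30, and with a floor of 100 in place of 30 its ratio became 1.38.

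Wfdc21 had 1273 and 1224 on the UAG arrays, against 428 and 384 on the saline arrays, a ratio of 3.08 and a log2 difference of 1.62 ± 0.14 (SE). Its standard error was the smallest of the 9 probe sets, and its groups lay far apart. Prr32 had 342 and 333 on the UAG arrays, against 118 and 96.1 on the saline arrays, with a ratio of 3.15 and a log2 difference of 1.66 ± 0.19 (SE). Pcbd1 was dim in WAT, with 130 and 125 on the UAG arrays and 44.5 and 32.3 on the saline arrays, a ratio of 3.31 and a log2 difference of 1.75 ± 0.24 (SE). Both of its saline values lay close to the floor, and with a floor of 100 its ratio became 1.27.

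Across the 9 probe sets the lowest UAG array was 2.31 to 2.92 times the highest saline array, so that all stood well inside the rule's limit of 1, and no probe set of these genes lay outside it. They ranked 7th to 18th by ratio of means among all 45037 probe sets, of which 0.244% had a ratio of at least 2 with both UAG arrays above both saline arrays. That order alone, with no size required, held for 19.9% of all probe sets. Over the 25307 probe sets tested in WAT, limma called 0% at an adjusted p of 0.05, with a smallest adjusted p of 0.430, while 1122 probe sets were higher and 601 lower at an unadjusted p below 0.05.

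**Figure D1:**
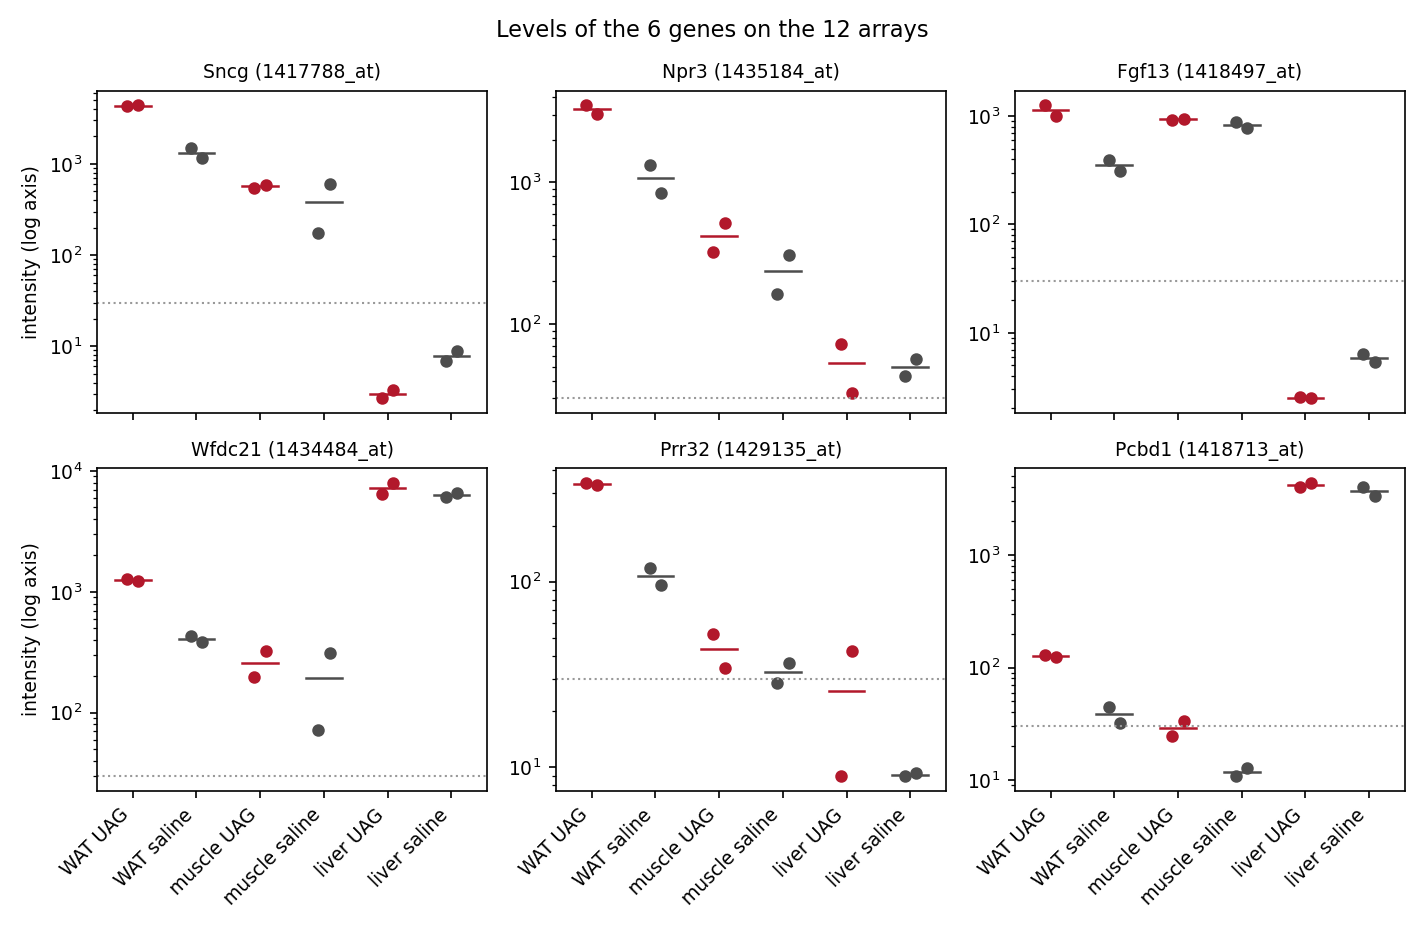
Intensity (log axis) of the brightest probe set of each of the 6 genes on the 12 arrays, with UAG arrays in red and saline arrays in grey, lines at group means and the floor of 30 dotted. In WAT both UAG arrays lie above both saline arrays for every gene, which is the rule that chose them, while liver holds the highest values of Wfdc21 and Pcbd1 and values below 30 for Sncg and Fgf13.

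**Figure D2:**
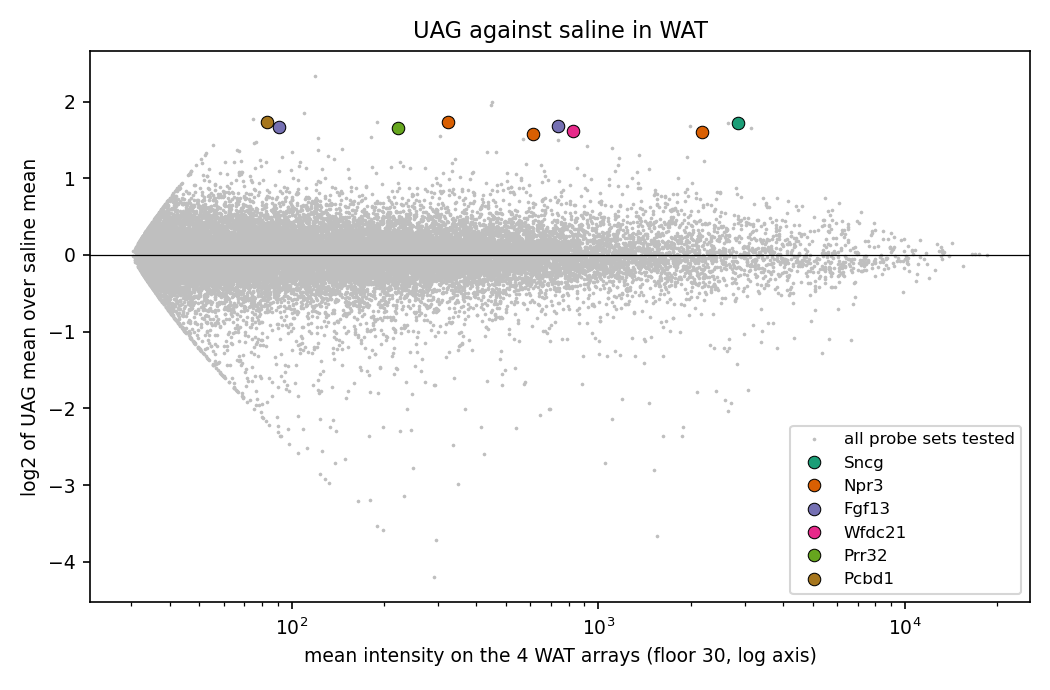
Log2 of the UAG mean over the saline mean in WAT against the mean intensity of the 4 WAT arrays (log axis), with the 9 probe sets coloured by gene and the 25307 probe sets tested in grey. The 9 probe sets lie at ratios of 2.99 to 3.34 over a wide range of intensity, with Pcbd1 among the dimmest and Sncg the brightest.

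The WAT arrays differed in cell type markers as well as in treatment. Of the adipocyte markers, 6 of 8 written were analysed, all above the floor. Their summed intensity was 62823 and 68381 on the UAG arrays and 62482 and 57732 on the saline arrays. Cidec, Lipe and Pnpla2 had both UAG arrays above both saline arrays, while Adipoq, Retn and Fabp4 had groups that overlapped. The saline array labelled replicate 1 had a brown adipocyte marker sum of 18928 (5 of 5 markers), against 3855 and 1895 on the UAG arrays and 2795 on the other saline array. The same array had a skeletal muscle fibre marker sum of 3267 (5 of 5 markers). This sum was 1168 and 1523 on the UAG arrays and 820 on the other saline array. The saline array labelled replicate 2 had a smooth muscle marker sum of 34705 (6 of 6 markers), against 6648 and 7112 on the UAG arrays and 6162 on the other saline array. Without the saline array labelled replicate 1 the 9 ratios ran from 3.25 to 4.91, and without replicate 2 from 2.43 to 2.95, values that the rule selected on like the ratios themselves. The part of these markers in the WAT values was not tested. In bulk tissue, fewer cells of a type and less RNA per cell cannot be told apart.

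Markers of neurons and of hepatocytes were also read in WAT, since Sncg is known from neurons and Wfdc21 and Pcbd1 were bright in liver. Of the neuron and Schwann cell list, 5 of 7 markers were analysed, with a sum of 132 and 139 on the UAG arrays, against 190 and 119 on the saline arrays, and Nefl, Snap25 and Tubb3 were below 30 on all 4. Of the hepatocyte list, 4 of 5 were analysed, with a sum of 14121 and 16299 on the UAG arrays, against 14136 and 13005 on the saline arrays, nearly all of it from Cyp2e1. The albumin gene Alb had 187 and 219 on the UAG arrays, against 115 and 138 on the saline arrays, with groups apart, and Apoa1 was below 30 on all 4. The mesothelial list, 5 of 5 above the floor, summed to 4501 and 2473 on the UAG arrays, against 2098 and 2431 on the saline arrays, and the part of Alb and of these cells in the result was not tested.

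In muscle, which the rule did not use, limma called none of the 8 probe sets tested (5 genes), where 0% of 25105 probe sets were called (Benjamini-Hochberg adjusted p = 1.00 for all 8). At an unadjusted p below 0.05 it called 1, the brightest Npr3 probe set, beside 268 higher and 200 lower of the 25105. The log2 difference was positive for 7, among them all 3 Npr3 probe sets, and negative for 1. Its median was 0.66, beside -0.00204 over all probe sets tested. Both UAG arrays lay above both saline arrays for 2 of the 8, beside 11.4% of all probe sets tested, and below them for none, beside 11.3%.

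Npr3 had 322 and 514 on the UAG arrays of muscle, against 163 and 309 on the saline arrays, by its brightest probe set. The groups did not overlap, but the lower UAG array was close to the higher saline array, and the log2 difference was 0.86 (95% interval 0.09 to 1.63, limma unadjusted p = 0.0327, adjusted p = 1.00). Sncg had 540 and 594 on the UAG arrays and 174 and 597 on the saline arrays. One saline array was thus as high as the UAG arrays and the other low, and the log2 difference of 0.82 had an interval of -0.24 to 1.87. Wfdc21 showed the same layout, with 197 and 322 on the UAG arrays and 71.4 and 314 on the saline arrays (log2 difference 0.75, interval -0.57 to 2.07). Leaving out the muscle saline array labelled replicate 1 turned the difference to -0.075 for Sncg and to -0.32 for Wfdc21.

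Fgf13 was bright in muscle in both treatments. Its brighter probe set gave 929 and 933 on the UAG arrays, against 874 and 774 on the saline arrays, a log2 difference of 0.18 with an interval of -0.22 to 0.57. The saline arrays of muscle lay just below the UAG arrays. The dimmer probe set gave a log2 difference of -0.06 (interval -0.69 to 0.57). Prr32 was near the floor in muscle, with 52.4 and 34.3 on the UAG arrays and 28.3 and 36.6 on the saline arrays. Pcbd1 had 24.7 and 33.7 on the UAG arrays and 10.9 and 12.9 on the saline arrays, too dim to be tested.

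**Figure D3:**
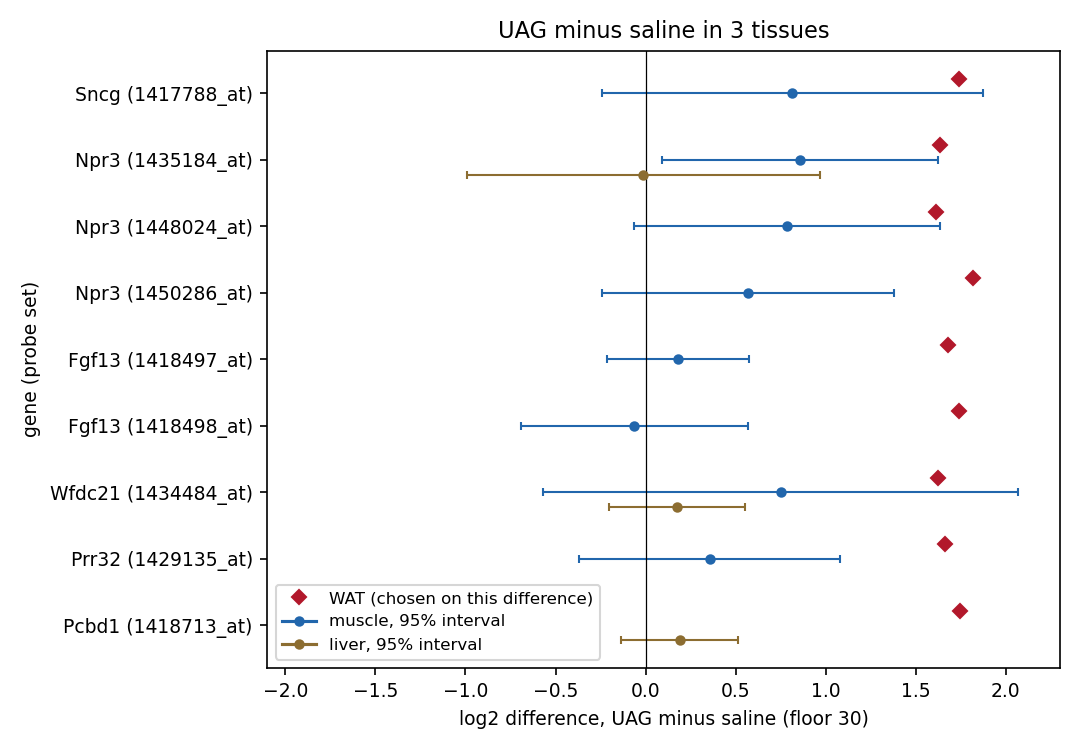
Log2 difference, UAG minus saline, of the 9 probe sets in WAT (red diamonds, with no interval since it chose them), in muscle (blue) and in liver (brown), with 95% limma intervals for the probe sets tested. All muscle and liver intervals but that of the brightest Npr3 probe set in muscle include 0.

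The muscle arrays also carried fat cell RNA. The 6 adipocyte markers analysed were all above the floor there and summed to 32579 and 37151 on the UAG arrays, against 28474 and 45827 on the saline arrays. The saline array labelled replicate 1 had the lowest sum. Sncg, Npr3 and Wfdc21 were lowest on it, as were Prr32 and Pcbd1, both below the floor there, while Fgf13 was lowest on the other saline array. The other saline array had the highest sum and the highest value of each of the 6 markers. Cidec, which encodes a lipid droplet protein, had 1843 and 2226 on the UAG arrays and 1229 and 3143 on the saline arrays, so its groups overlapped. The UAG array labelled replicate 2 had a neutrophil marker sum of 7096 (5 of 5 markers), against 296 on the other UAG array and 220 and 684 on the saline arrays. The epithelial marker sum (5 of 5 markers) was 444 and 611 on the UAG arrays, against 78.2 and 2130 on the saline arrays. It was thus also lowest on the saline array labelled replicate 1 and highest on the other. The part of any of these cell types in the muscle values was not tested.

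**Figure D4:**
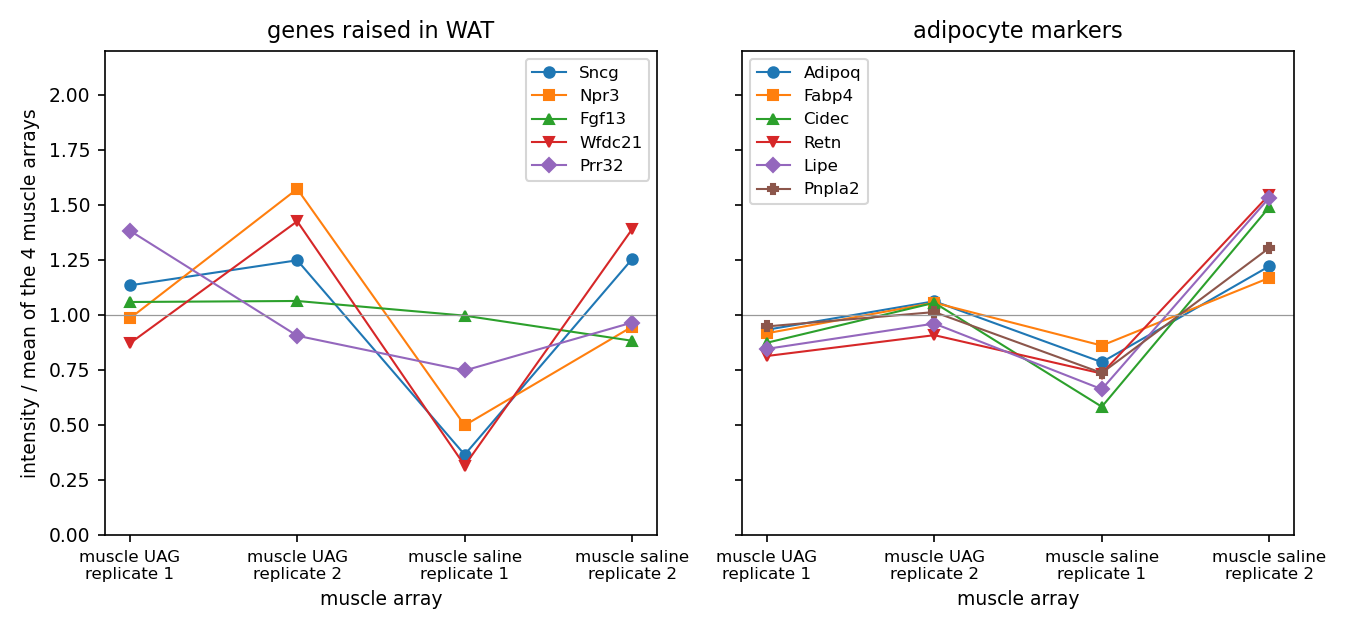
Intensity on each muscle array divided by the mean of the 4 muscle arrays, for the brightest probe sets of 5 of the genes (left) and for the 6 adipocyte markers (right), with UAG arrays before saline arrays. Sncg, Npr3, Wfdc21 and Prr32 and all 6 markers are lowest on the saline array labelled replicate 1, and Fgf13 is near 1 on all 4 arrays.

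In liver, limma called none of the 3 probe sets tested (Npr3, Wfdc21 and Pcbd1), where 0.00397% of 25160 probe sets were called. None of the 3 had an unadjusted p below 0.05, beside 487 higher and 432 lower of the 25160. For all 3 the groups overlapped, while both UAG arrays lay above both saline arrays for 15.3% of all probe sets tested and below them for 15.2%. Wfdc21 had 6423 and 7993 on the UAG arrays and 6132 and 6576 on the saline arrays (log2 difference 0.17, interval -0.21 to 0.55, adjusted p = 1.00). Pcbd1 had 4016 and 4382 on the UAG arrays and 4033 and 3358 on the saline arrays (log2 difference 0.19, interval -0.14 to 0.52, adjusted p = 1.00). Wfdc21 and Pcbd1 were bright on all 4 liver arrays, and both intervals include 0. Npr3 had 72.8 and 32.9 on the UAG arrays and 43.1 and 56.6 on the saline arrays, with a log2 difference of -0.01 and a wide interval of -0.99 to 0.97. Sncg and both Fgf13 probe sets were below 30 on all 4 liver arrays, and no difference could be measured.

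The UAG effect of muscle was set against that of liver in a fit to the 12 arrays, for the 2 probe sets that passed the filter in both tissues. The others were at or near the floor in liver or in muscle, where the difference is set by the floor. limma called neither, where 0% of 26530 probe sets were called. Neither had an unadjusted p below 0.05, beside 380 higher and 366 lower of the 26530. The difference was 0.87 for the brightest Npr3 probe set (interval -0.41 to 2.15) and 0.58 for Wfdc21 (interval -1.004 to 2.16) on the log2 scale, and both intervals are wide.

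The levels of the 6 genes were also compared between the tissues. Between the saline groups, 5 of the 9 probe sets were higher in muscle than in liver and 2 were lower at an adjusted p of 0.05 (limma), beside 26.1% and 23.2% of all probe sets tested. At the same threshold 6 stood higher in WAT than in muscle and 2 lower, beside 17.9% and 15.7%, and 6 stood higher in WAT than in liver and 2 lower, beside 24.2% and 21.2%. The rule used the WAT saline arrays too, as the lower pair, which favours genes that read low on them. Differences that involve WAT saline are therefore given below with no p, their counts support nothing, and those that run lower in WAT run the way the selection does. Muscle against liver did not enter the rule.

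Sncg and Npr3 were ordered WAT, muscle, liver. Sncg in WAT saline averaged 1319 ± 229, against 385 ± 299 in muscle saline (SD, n = 2 each), a log2 difference of 2.02. In liver Sncg was below the floor, so that WAT was at least 43.7-fold higher and muscle at least 10.7-fold higher, both against the floor of 30 from group means of log2 values. The muscle limit rests on arrays that differ. Its log2 difference from the liver floor was 3.42 (adjusted p = 4.67e-05, limma), 2.53 without muscle saline replicate 2 and 4.31 without muscle saline replicate 1. The difference between WAT and muscle was 2.92 and 1.13 without those same arrays. The floor left the liver values of Sncg with no spread, which lowers the spread that gave the p against liver. Npr3 averaged 1076 ± 340 in WAT saline, 236 ± 104 in muscle saline and 49.9 ± 9.57 in liver saline (SD, n = 2 each). The log2 difference was 2.23 between WAT and muscle and 2.18 between muscle and liver, the step that was tested (adjusted p = 0.00110, limma).

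Fgf13 was ordered muscle, WAT, liver. It averaged 352 ± 53.9 in WAT saline, against 824 ± 70.8 in muscle saline (SD, n = 2 each), a log2 difference of -1.23. The dimmer probe set had a log2 difference of -1.98. Against the liver floor, the brighter probe set was at least 11.7-fold higher in WAT saline and at least 27.4-fold higher in muscle saline. On the UAG arrays of WAT it read 1262 and 995, above the 4 muscle arrays, which ran from 774 to 933. The dimmer probe set did not show this: it read 137 and 140 on the UAG arrays of WAT and from 132 to 200.5 on the muscle arrays.

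Prr32 averaged 107 ± 15.6 in WAT saline, against 33.3 ± 4.63 in muscle saline (SD after the floor, n = 2 each), a log2 difference of 1.69. In liver saline it was below the floor, so that WAT was at least 3.55-fold higher. Muscle saline was near the floor, so the log2 difference of 0.14 between muscle and liver was set by the floor. Whether these 2 tissues differ could not be measured. Before the floor, the means were 32.4 in muscle saline and 9.12 in liver saline. A single liver UAG array read 42.5, against 9.0 on the other.

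Wfdc21 and Pcbd1 had their highest levels in liver. Wfdc21 averaged 406 ± 31.5 in WAT saline, against 6354 ± 314 in liver saline (SD, n = 2 each), a log2 difference of -3.97. Between muscle and liver the log2 difference was -5.41 (adjusted p = 6.50e-06, limma). Its level in WAT saline stood above that in muscle saline by a log2 difference of 1.44, which dropped below the threshold in 15 of 20 alternatives and was 0.37 without the muscle saline array labelled replicate 1. Pcbd1 averaged 38.4 ± 8.57 in WAT saline, against 3695 ± 478 in liver saline (SD, n = 2 each), a log2 difference of -6.60. Muscle saline, where Pcbd1 was below the floor on both arrays, stood below liver by a log2 difference of -6.94 (adjusted p = 1.90e-10, limma). This difference is a limit set by the floor. The floor also left the muscle saline values with no spread, which lowers the spread that gave this p. WAT saline stood above muscle saline by a log2 difference of 0.34, a lower limit, since both muscle values were set to the floor. Before the floor, the means were 38.4 in WAT saline and 11.9 in muscle saline. Even on the UAG arrays of WAT, Pcbd1 at 130 and 125 was far below its lowest liver value of 3358.

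None of the relatives and partners of the 6 genes, and none of the genes of fat expansion set beside them, was called in WAT. Of 75 genes written in 8 lists, 63 were analysed and 40 were bright enough to test in WAT, and limma called 0 of them, where 0% of all probe sets were called. At an unadjusted p below 0.05, 5 were higher and 3 lower, beside 1122 and 601 of the 25307 probe sets tested. The median log2 difference was 0.03, beside 0.01 over all probe sets tested. Both UAG arrays lay above both saline arrays for 9 of the 40, beside 22% of all probe sets tested, and below them for 7, beside 15.3%. The lists were chosen with earlier results of these data known.

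Among the natriuretic peptide genes, 10 of 15 were tested in WAT and none was called, with 4 higher and 6 lower. The signalling receptors differed little from saline: Npr1 had 57.4 and 51.7 on the UAG arrays, against 47.6 and 46.1 on the saline arrays, and Npr2 had 541 and 581, against 461 and 608. Pde2a, a phosphodiesterase that cyclic GMP activates, had 1469 and 1697 on the UAG arrays, against 1182 and 963 on the saline arrays, with groups apart (log2 difference 0.57, adjusted p = 0.682, limma). Mme, which encodes the peptide-degrading enzyme neprilysin, had 462 and 448 on the UAG arrays, against 657 and 547 on the saline arrays (log2 difference -0.40, adjusted p = 0.733, limma). Pde9a, another cyclic GMP phosphodiesterase, had 39.2 and 18.7 on the UAG arrays, against 39.6 and 54.1 on the saline arrays. Pde5a, which hydrolyses cyclic GMP, and Prkg1, a kinase that cyclic GMP activates, were both high on the saline array labelled replicate 2, which had the high smooth muscle markers. Pde5a had 154 and 147 on the UAG arrays and 142 and 585 on the saline arrays, and Prkg1 had 119 and 102, against 104 and 276.

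Of the tetrahydrobiopterin genes, 8 of 13 analysed were tested in WAT and 7 were higher and 1 lower, none called (median log2 difference 0.12). Agmo, a lipid-cleaving monooxygenase that uses the cofactor, had 1208 and 1554 on the UAG arrays and 1300 and 1057 on the saline arrays, and Nos1 and Spr had log2 differences of 0.22 and 0.21. Gch1, the first enzyme of tetrahydrobiopterin synthesis, had 55.7 and 50.7 on the UAG arrays, against 50.3 and 40.1 on the saline arrays. Qdpr, which works next to Pcbd1 in recycling the cofactor, had 2455 and 2338 on the UAG arrays and 2561 and 2159 on the saline arrays. Pcbd2, the paralogue of Pcbd1, had 596 and 442 on the UAG arrays and 654 and 481 on the saline arrays. Of the genes of this list, Gch1 alone had groups apart. Of the Pcbd1 partners in transcription only Dyrk1b was tested (log2 difference -0.15, adjusted p = 0.907, limma).

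Of the whey acidic protein domain family, 7 of 12 analysed were tested in WAT, 3 higher and 4 lower, none called. Slpi, a secreted protease inhibitor, had 675 and 342 on the UAG arrays, against 262 and 251 on the saline arrays (ratio 1.98, log2 difference 0.90, adjusted p = 0.712, limma). Wfdc2 ran the other way from Wfdc21, with 17.8 and 6.9 on the UAG arrays, against 202 and 67.4 on the saline arrays (log2 difference -1.96, adjusted p = 0.644, limma). Wfdc15b had 18.5 and 20.7 on the UAG arrays, against 62.0 and 45.2 on the saline arrays. Wfdc17 had a log2 difference of -0.20 with groups that overlapped. Wfdc2 and Wfdc15b were below 30 on both UAG arrays, so their ratios rest on the floor.

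The synuclein list had 4 genes tested in WAT, with log2 differences of -0.21 to 0.24 and none called. Sncb, which encodes beta-synuclein, had 63.5 and 70.0 on the UAG arrays and 65.7 and 48.5 on the saline arrays. Among the other fibroblast growth factor homologous factors, Fgf11 had 89.2 and 83.5 on the UAG arrays, against 78.7 and 71.4 on the saline arrays, and Fgf14 had 50.4 and 43.4, against 69.5 and 48.6. Fgf12 was below 30 on all 4 WAT arrays. Of the sodium channel genes, the channels that Fgf13 and its relatives bind, 3 of 10 analysed were bright enough to test in WAT, all of them beta subunits, and none was called. Scn4b, the farthest from 0, had 24.7 and 27.8 on the UAG arrays, against 49.2 and 38.6 on the saline arrays, with groups apart. Both UAG values were below 30, so its log2 difference of -0.54 (adjusted p = 0.738, limma) rests on the floor. The 7 alpha subunits analysed did not pass the filter on low intensity in WAT.

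Genes known to rise in expanding fat held the values in WAT that were most like those of the 6 genes among the 8 lists. The lists were written with earlier results of these data known, so this likeness is a description and supports nothing. Mest, an imprinted gene, had 850 and 571 on the UAG arrays, against 165 and 202 on the saline arrays (ratio 3.88, log2 difference 1.93, adjusted p = 0.477, limma). Lep, which encodes leptin, had 2762 and 3283 on the UAG arrays, against 1495 and 392 on the saline arrays (ratio 3.20, adjusted p = 0.659, limma). Sfrp5, a secreted Wnt inhibitor, had 381 and 202 on the UAG arrays, against 106 and 69.1 on the saline arrays (ratio 3.34, adjusted p = 0.580, limma). For these 3 of the 5 tested, both UAG arrays lay above both saline arrays, beside 22% of all probe sets tested. Trp53inp2 (ratio 1.52) and Nkd1 (ratio 0.753) had groups that overlapped. With the replicate number as a block, Mest (adjusted p = 0.0323, limma) and Sfrp5 (adjusted p = 0.0382, limma) passed the threshold. They were among 22 of 25307 probe sets called with this block, and 0 were called with the numbers crossed. Whether the number pairs the arrays is not known. In a fit to all 12 arrays, Mest passed (adjusted p = 0.0245, limma), among 30 probe sets called.

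In muscle and liver, 35 and 32 of the related genes were tested and limma called 0 in each. At an unadjusted p below 0.05 it called 1 in each, Lep in muscle and Pde9a in liver. Over all probe sets tested, 268 were higher and 200 lower at that level in muscle, and 487 and 432 in liver. Lep in muscle had 366 and 626 on the UAG arrays, against 176 and 172 on the saline arrays (ratio 2.85, log2 difference 1.46, unadjusted p = 0.000506, adjusted p = 1.00, limma), so its groups were apart in muscle as in WAT.

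**Figure D5:**
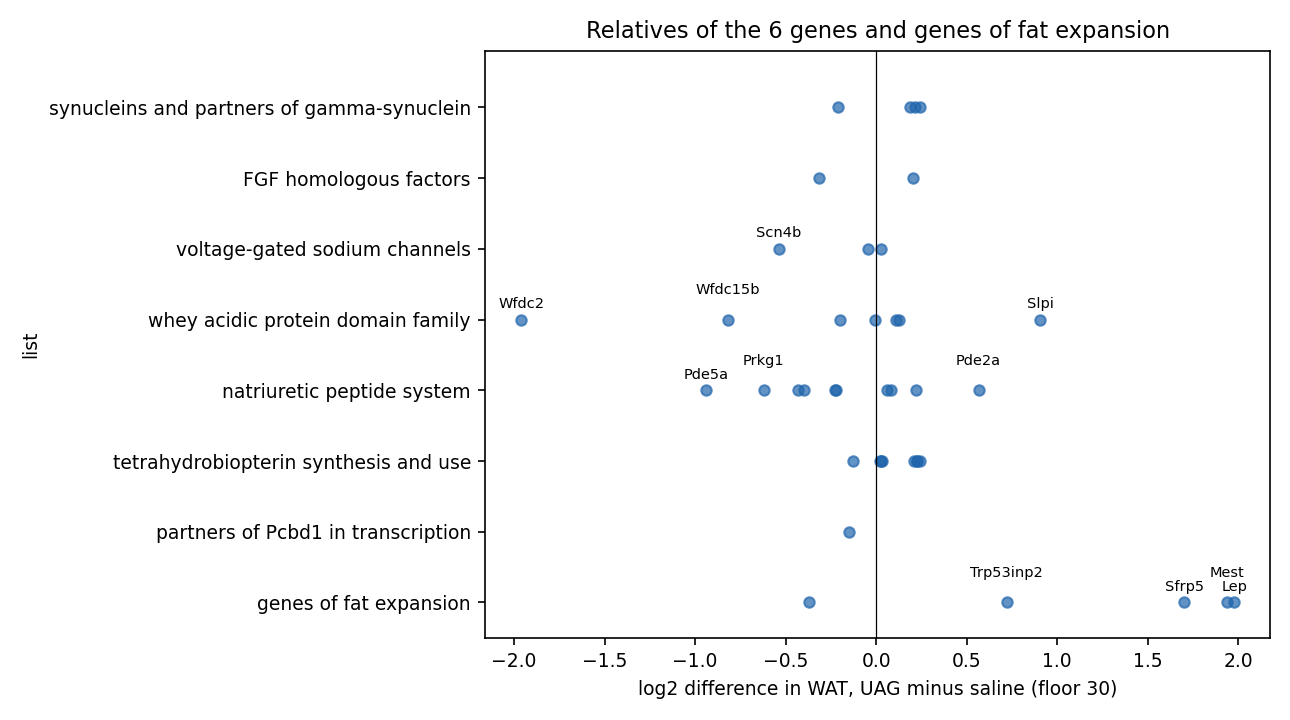
Log2 difference in WAT, UAG minus saline, of the 40 related genes tested, by list, with names for the genes farthest from 0. Most lists lie on both sides of 0, and Mest, Lep and Sfrp5 lie at 1.70 to 1.98.

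The gene whose log2 level was most like that of Sncg over the 12 arrays was Phgdh, the first enzyme of serine synthesis from glucose (Pearson r = 0.998 over 12 arrays, among 22702 probe sets compared). This is a description: the arrays share tissues and the WAT contrast. That Phgdh probe set had 2893 and 2597 on the UAG arrays of WAT, against 1343 and 927 on the saline arrays. In muscle it had 416 and 427 on the UAG arrays and 170 and 400 on the saline arrays, low on the same saline array as Sncg. With the mean of each tissue removed, a second Phgdh probe set stood among the 5 most alike genes for 3 of the 6 genes, Sncg, Npr3 and Wfdc21. It had 3159 and 3031 on the UAG arrays of WAT, against 1520 and 1137 on the saline arrays. Nnat, an imprinted gene of neuroendocrine and fat tissue, followed Sncg with 4969 and 4583 on the UAG arrays of WAT, against 1577 and 1453 on the saline arrays. Prelp, a matrix proteoglycan, was alike to Npr3 and Pcbd1 with 4004 and 4116 on the UAG arrays of WAT, against 1495 and 968 on the saline arrays. Plppr4 and Sbsn were alike to Fgf13 and Pcbd1, and Spata6 and Srpx2 to Sncg and to Wfdc21 or Npr3. For Fgf13 the most alike genes were Tln2 with tissue means kept (r = 0.993 over 12 arrays) and Sbsn with them removed (r = 0.982). The third with tissue means removed was a probe set of Upk3b (r = 0.959), one of the mesothelial markers. The marker list used another Upk3b probe set. That one had 2615 and 1427 on the UAG arrays of WAT, against 1140 and 1237 on the saline arrays. The UAG array on which it was higher was also the one with the higher Fgf13. The part of mesothelial cells in the Fgf13 values was not tested. For Pcbd1 the most alike gene was Baiap2l1 (r = 0.994). For Wfdc21 with tissue means kept, the most alike gene was Cfb, complement factor B, at r = 0.987 over 12 arrays.

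Among themselves, with tissue means removed, the 6 genes had correlations of 0.65 to 0.97 over the 12 arrays for their brightest probe sets. Fgf13 and Pcbd1 (0.97) and Sncg and Wfdc21 (0.97) were the most alike pairs, and Fgf13 and Wfdc21 (0.65) the least. With tissue means kept, Wfdc21 and Pcbd1 correlated at 0.95 with each other and at -0.58 and -0.78 with Sncg. These values share the WAT contrast that chose the genes and carry no test.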

How the data were processed

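RNA of 3 tissues was measured on 12 arrays. The authors deposited normalized log2 values for 45037 probe sets and 64 controls. Per the labels they used MAS5, without a version, and their methods add quantile normalization, a threshold of 30 and a ratio of means of at least 2. No source states the logarithm's base, which was taken as 2, since the highest value (14.65) then gives an intensity of 25724, within the range of a scanner. Values below 30 are present in the table, so the threshold had not been applied. Detection calls were not used. The number of arrays limits the precision.

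Values were returned to intensity and floored at 30. limma 3.58.1 in R 4.3.3 (intensity trend, Benjamini-Hochberg, threshold 0.05) was fitted to the 4 arrays of a tissue, or to all 12 for contrasts between tissues, after leaving out probe sets whose unfloored mean was below 30. The fits within a tissue were tested on simulated data. The fit to 12 arrays, which was not, has no term for the mouse. Probe sets were named by the platform annotation (932 probe sets name several genes and 9160 none), and a related gene took its brightest probe set. Named genes were all 6 members, the 5 most alike genes per probe set, of which some are given, and per list the genes called or the 4 with the largest log2 difference. Mme, Npr1, Npr2, Gch1, Qdpr, Pcbd2, Fgf11 and other relatives were named for their role after their values were seen. Not every gene of the rule is given. Members and lists were chosen with earlier results of these data known. The alternatives were other floors, normalizations, filters and fits, the replicate number as a block, and each array left out in turn.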

Additional observations from a re-analysis of the deposited data

How the results depend on the processing

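Of 791 pairs of a value and an alternative, over 47 values, 739 kept their direction and side of the threshold or stayed within the spread. Many of these pairs rest on the WAT arrays that the rule used, where the outcome was favoured in advance. The tally is therefore no support for the 6 genes in WAT. With a floor of 100, 7 of the 9 probe sets had a ratio of at least 2 with groups apart in WAT. The WAT saline arrays were the lower pair of the rule, so counts and calls against them are given here as a description and support nothing. The number called between WAT saline and muscle saline was 8, and 5 with a floor of 100, which removed the dim Npr3 probe set, Wfdc21 and Prr32. Without 1 array it ran from 6 to 8, from 8 to 9 between WAT and liver, and from 6 to 8 between muscle and liver. The dimmest Npr3 probe set dropped below the threshold between WAT and muscle without WAT saline replicate 1 (log2 difference 1.04) or without muscle saline replicate 1 (1.05). The second Npr3 probe set lost its call between muscle and liver without muscle saline replicate 2 (0.74) or without liver saline replicate 1 (1.10). Without WAT saline replicate 2, Pcbd1 was called between WAT and muscle (0.57), as was the dimmer Fgf13 probe set between WAT and liver (0.93). Without muscle saline replicate 1, the dimmest Npr3 probe set was called between muscle and liver (1.18).

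Without 1 array, the muscle difference ran from -0.075 to 1.71 for Sncg, from -0.36 to 0.24 for the dimmer Fgf13 probe set and from -0.32 to 1.82 for Wfdc21, and the liver difference of Npr3 ran from -0.58 to 0.56, on the log2 scale and none of them called. No alternative called a member in muscle or liver.

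In deviations from the group means, arrays of the same number correlated at -0.18 in WAT, 0.18 in muscle and -0.03 in liver. A single value per tissue cannot decide whether the number pairs them. With the replicate block, limma called 2 of the 40 related genes in WAT (Mest and Sfrp5) and 22 of all probe sets, and 0 of all probe sets with the numbers crossed, a pairing added after the correlation was seen. In a fit to all 12 arrays 1 related gene was called (Mest), where 30 of all probe sets were. The block left 0 members called in muscle and in liver. The causes were not tested. With 2 arrays per group, the muscle intervals of Sncg and Wfdc21 are wide.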
